A study of Drosophila melanogaster with 4 samples.

Results

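Bomanins are short secreted peptides of *Drosophila melanogaster*, and their listed transcripts were compared between intestines of a kdm5 mutant and of a wild-type strain. The members were all transcripts in the deposited table that belong to a gene whose symbol starts with Bom. The annotation holds 12 such genes with 17 transcripts. Of these, 7 transcripts of 7 genes were in the table, out of 1761 listed transcripts in all. They were BomS1, BomS2, BomS3, BomS6, BomT2, BomBc1 and BomBc2. The other 5 genes, BomS4, BomS5, BomT1, BomT3 and BomBc3, had no listed transcript, and nothing is said here of their level.

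The tested flies carried the kdm5 alleles k6801 and 10424 together (2 samples), and the wild-type flies were of the strain w1118 (2 samples). The gene, known as lid too, makes an enzyme that demethylates lysine 4 of histone H3. All flies were females aged 3 to 5 days, and each sample pooled 30 dissected intestines. The labels do not say whether the mutant alleles were crossed into the w1118 background, so a difference in background and an effect of the alleles cannot be told apart. One label field names the source as the whole animal, while the tissue field and the protocol name the intestine. Dissected intestines hold many cell types, and a rise in RNA per cell cannot be told apart from a larger number of cells that make it. The series set out to find genes expressed at different levels in mutant and wild-type intestine.

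The Toll pathway is a branch of fly innate immunity that responds mainly to fungi and Gram-positive bacteria. Circulating recognition proteins start a cascade of serine proteases that cuts the ligand Spätzle, and Spätzle then activates the receptor Toll. The signal frees the NF-kappaB factors Dorsal and Dif from their inhibitor Cactus. Bomanins are among its most strongly induced targets after systemic infection, when the fat body makes them and releases them into the blood, and flies without the main Bomanin cluster survive such infections poorly. The family has short members (BomS) that are little more than the Bomanin motif, tailed members (BomT) with an added C-terminal stretch, and bicipital members (BomBc) with a pair of motifs joined by a linker. In the gut epithelium the better known route to antimicrobial peptides is the IMD pathway, a separate NF-kappaB pathway that acts through Relish.

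Levels are given in TPM, a measure of transcript abundance that corrects for transcript length and sums to the same total in each library. The authors' deposited table holds transcripts with p < 0.05 and no others, so it was selected on this very contrast. A Bomanin transcript that is listed had therefore already passed a test for a difference, and the counts below describe the listed members and not the family. Log2 changes are the mutant minus w1118 on log2(TPM + 1), fitted with limma over all 1761 listed transcripts, with the standard error (SE) and n = 2 per group. The verbs rose and fell are used only where the limma adjusted p was below 0.05 with all 35694 annotated transcripts counted as tests, called the annotation-wide p. With 2 libraries against 2, an exact two-sided permutation test of a single transcript cannot go below p = 0.333. The annotation-wide count does not undo the selection of the table, as limma was fitted on the listed transcripts alone. With the deposited p-values adjusted over that same count, 0 listed Bomanins were called. The depth behind each value is unknown, as TPM does not carry it. The labels do not say whether the 2 samples of a genotype came from separate crosses or days, and the p-values may in part reflect technical spread alone.

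The listed Kdm5 transcript (FBtr0307071) had 0.0768 and 0.0361 TPM in the mutant libraries, against 1.43 and 0.639 TPM in the w1118 libraries. Each library lay on the side that its label gives. This transcript was listed for a difference in this same contrast, so its direction is no independent check of the labels. It was not called annotation-wide (limma annotation-wide adjusted p = 0.109). The level of Kdm5 as a whole gene is not known from this transcript.

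All 7 listed Bomanin transcripts rose in the mutant intestine with TPM as deposited. Their summed level was 387 and 417 TPM in the mutant libraries, against 92.2 and 95.3 TPM in the w1118 libraries. Both mutant libraries lay above both w1118 libraries for each of the 7, as they did for 58.8% of all listed transcripts. These were all 1036 listed transcripts that were higher at all. Non-overlap, here and below, therefore adds nothing to being listed as higher. Over the listed transcripts limma called 7 of 7 higher, where 53.7% of all listed transcripts were called higher. Annotation-wide it also called 7 of 7 higher, where 22.0% of all listed transcripts were. The median log2 change was 1.97 over the 7 Bomanins and 0.86 over all listed transcripts. With each library divided by its median ratio over the listed transcripts, the Bomanin log2 changes ran over 0.72 to 3.15 and the median of all listed transcripts was 0.1. Whether TPM as deposited or the rescaled values are nearer the true levels was not tested. Median-ratio scaling pulls the median of the listed transcripts toward 0 by construction, and these transcripts were selected on this contrast. All 7 Bomanins were called higher over the listed transcripts under that scaling too, where 307 of all listed transcripts were called higher and 717 lower, against 946 higher and 412 lower with TPM as deposited. Annotation-wide, limma on the rescaled values called 1 of 7 Bomanins higher, BomS1 (adjusted p = 0.0428), while BomBc1 had an adjusted p of 0.0566 and the other 5 lay between 0.223 and 0.711. Over all listed transcripts that fit called 54 higher and 194 lower, against 387 higher and 153 lower with TPM as deposited. With TPM as deposited, no annotation-wide limma call of any listed transcript, Bomanin or other, held without mutant replicate 1 or without mutant replicate 2. Calls were also lost over all listed transcripts with a w1118 library left out. Among them were BomT2 without w1118 replicate 1, and BomT2 and BomS2 without w1118 replicate 2.

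**Figure D1:**
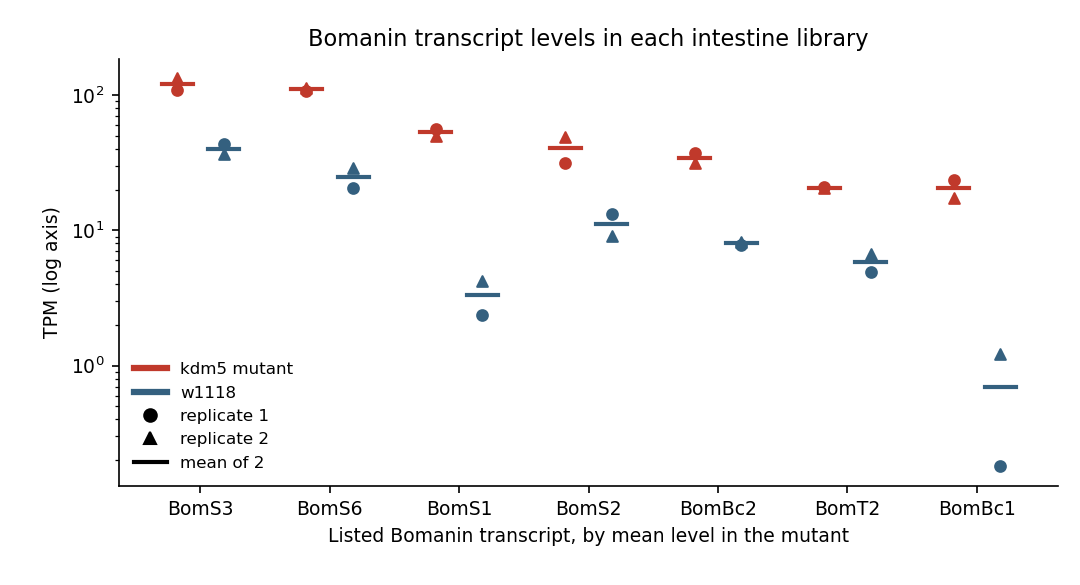
Level of each listed Bomanin transcript in TPM (log axis), with kdm5 mutant libraries to the left of w1118 libraries, circles for replicate 1, triangles for replicate 2 and bars for the mean of 2. For every transcript both mutant points lie above both w1118 points, and the gap is widest for BomS1 and BomBc1.

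The short Bomanins are secreted peptides, and 4 of 6 annotated genes were listed. BomS1 (FBtr0086662, coding length 135 bases) had 56.5 and 49.8 TPM in the mutant libraries, against 2.35 and 4.25 TPM in the w1118 libraries. The lowest mutant value was far above the highest w1118 value, and the mean was 53.2 ± 4.75 TPM in mutant libraries, against 3.3 ± 1.34 TPM in w1118 libraries (SD, n = 2 each). The ratio of means was 16.1, and the log2 change was 3.69 ± 0.35 (limma annotation-wide adjusted p = 2.86e-06). BomS1 was a minor Bomanin in w1118, the 6th of the 7 by mean level, and was the 3rd of the 7 in the mutant.

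BomS6 (FBtr0086727, coding length 120 bases) had 107 and 114 TPM in the mutant libraries, against 20.5 and 29 TPM in the w1118 libraries. The mutant libraries were close to each other and the groups did not overlap. The ratio of means was 4.46, and the log2 change was 2.13 ± 0.27 (limma annotation-wide adjusted p = 0.000105). BomS6 accounted for 27.8% of the summed difference in TPM between the genotypes over the 7 transcripts.

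BomS3 (FBtr0086665, coding length 117 bases) was the most abundant listed Bomanin in both genotypes. It had 109 and 134 TPM in the mutant libraries, against 43.3 and 36.9 TPM in the w1118 libraries. The groups did not overlap, yet the ratio of means, 3.03, was the lowest of the 7. The log2 change was 1.57 ± 0.26 (limma annotation-wide adjusted p = 0.0015), and BomS3 accounted for 26.5% of the summed difference. Another, longer BomS3 transcript with the same coding length (FBtr0340328) is annotated and was not listed, and the level of BomS3 as a whole gene is therefore unknown.

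BomS2 (FBtr0086664, coding length 135 bases) had 31.7 and 49.4 TPM in the mutant libraries, against 13.2 and 9.01 TPM in the w1118 libraries. Mutant replicate 2 was the highest library, and both mutant libraries lay above both w1118 libraries. The ratio of means was 3.65, and the log2 change was 1.77 ± 0.33 (limma annotation-wide adjusted p = 0.00471). Short Bomanins are paralogs, and reads that fit several of them could have been divided between them; no source used here says how the authors assigned such reads.

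The tailed and bicipital Bomanins are the longer forms. BomT2 (FBtr0086666, coding length 228 bases) was the listed tailed member of 3 annotated genes. It had 20.9 and 20.6 TPM in the mutant libraries, against 4.92 and 6.74 TPM in the w1118 libraries. The mutant libraries were nearly equal and the groups did not overlap. The ratio of means was 3.56, and the log2 change was 1.68 ± 0.35 (limma annotation-wide adjusted p = 0.0119).

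Of the bicipital Bomanins, 2 of 3 annotated genes were listed. BomBc1 (FBtr0086729, coding length 351 bases) had 23.8 and 17.4 TPM in the mutant libraries, against 0.18 and 1.22 TPM in the w1118 libraries. It was the lowest of the 7 in both genotypes by mean level, and the ratio between the w1118 libraries was larger than for any other listed Bomanin. The ratio of means was 29.4, and it was 16.9 without w1118 replicate 1. No ratio is given without w1118 replicate 2, since the remaining w1118 value of 0.18 TPM is under the 0.5 TPM needed in both groups. The log2 change was 3.72 ± 0.41 (limma annotation-wide adjusted p = 1.52e-05).

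BomBc2 (FBtr0300844, coding length 462 bases) had 37.5 and 31.6 TPM in the mutant libraries, against 7.81 and 8.21 TPM in the w1118 libraries. The w1118 libraries were close to each other and the groups did not overlap. The ratio of means was 4.31, and the log2 change was 1.97 ± 0.32 (limma annotation-wide adjusted p = 0.00115). A longer BomBc2 transcript (FBtr0086728) with the same coding length is annotated and was not listed, and the level of BomBc2 as a whole gene is therefore unknown.

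In the mutant the order by mean TPM was BomS3, BomS6, BomS1, BomS2, BomBc2, BomT2 and BomBc1. In that order the libraries of BomS3 and BomS6 overlapped, as did those of BomS2 and BomBc2 and those of BomT2 and BomBc1. In w1118 the order was BomS3, BomS6, BomS2, BomBc2, BomT2, BomS1 and BomBc1, and no neighbours overlapped. The order differed between the genotypes in the place of BomS1 alone. The range of mean levels ran over 20.6 to 122 TPM in mutant libraries, against 0.7 to 40.1 TPM in w1118 libraries. The median listed transcript had a mean level of 11.3 TPM in mutant libraries, against 7.29 TPM in w1118 libraries. Listed Bomanin transcripts are short, with 198 to 505 exonic bases, and TPM estimates of transcripts near the length of a sequenced fragment depend on the length correction used.

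**Figure D2:**
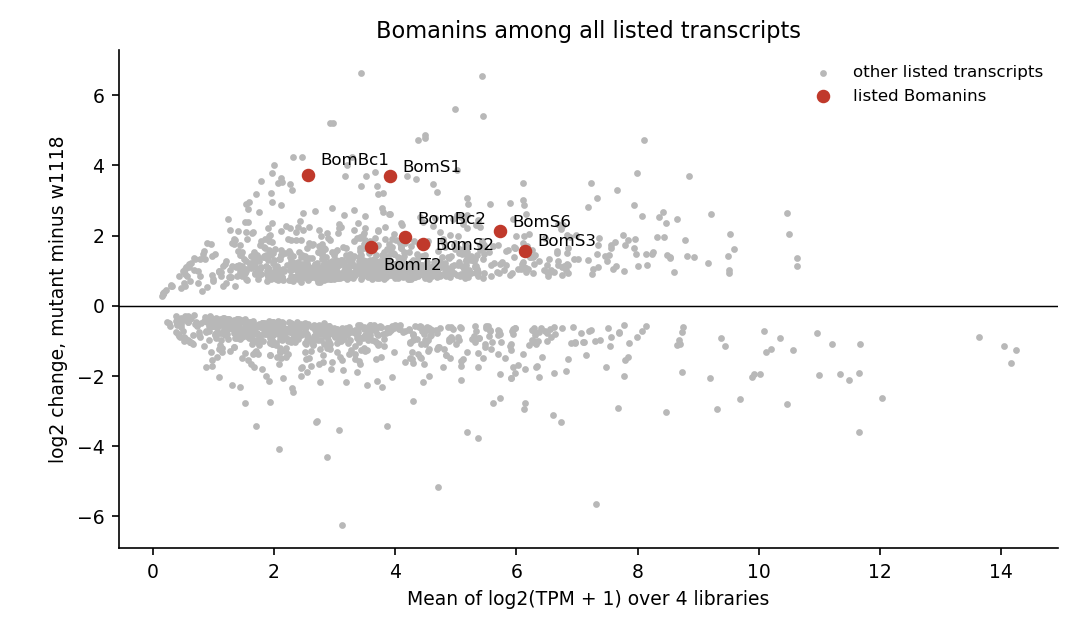
Log2 change (mutant minus w1118, log2(TPM + 1)) against the mean of log2(TPM + 1) over the 4 libraries for all 1761 listed transcripts, with the 7 Bomanins in red. All Bomanins lie above 0, BomBc1 and BomS1 near 3.7 and the other 5 between 1.57 and 2.13; the empty band around 0 is where no transcript was listed.

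Of the 12 Bomanin genes, 10 lie in a cluster on chromosome arm 2R (18381393 to 18390629 in the BDGP6.54 annotation), a stretch of 9.24 kb with 6 genes on the plus strand and 4 on the minus strand. All 7 listed transcripts came from this cluster. The other 2 genes, BomT3 and BomBc3, lie together on 3R (22085374 to 22088501), and none of their transcripts was listed. Each listed Bomanin transcript has 2 exons.

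The largest log2 changes were those of neighbours. BomBc1 (18382704 to 18383235, minus strand) and BomS1 (18383949 to 18384378, plus strand) are transcribed away from each other, with 713 bases between them. Their log2 changes were 3.72 ± 0.41 and 3.69 ± 0.35, while the other 5 lay between 1.57 ± 0.26 and 2.13 ± 0.27. Whether the changes differed between members was not tested. On the scale of all listed transcripts BomBc1 and BomS1 were 20th and 25th by log2 change, and BomS3 was 257th. BomBc2 (listed transcript 18385030 to 18385589, minus strand) and BomS2 (18386602 to 18387030, plus strand) also face away from each other, with 1012 bases between them. To their right lie BomS3 (listed transcript 18388119 to 18388490, plus strand), BomT2 (18388995 to 18389443, plus strand) and BomS6 (18390353 to 18390629, minus strand). None of the listed Bomanin transcripts overlaps a transcript of another gene in the annotation. The longer BomBc2 transcript shares 88 bases with BomS4 on the opposite strand.

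**Figure D3:**
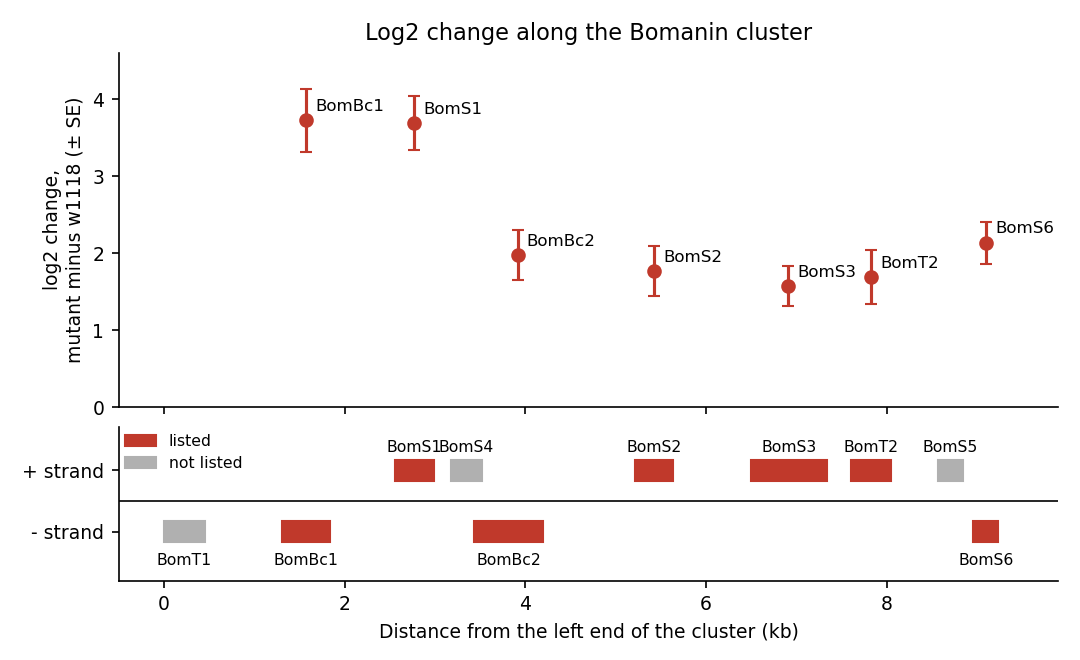
Top, log2 change with its SE for the 7 listed transcripts against distance in kb from the left end of the 2R cluster; bottom, the 10 genes of the cluster by strand, red where a transcript was listed and grey where none was. BomBc1 and BomS1, side by side on opposite strands, stand near 3.7, and the 5 to their right stand between 1.57 and 2.13.

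The genes around the cluster were also measured in part. Within 50 kb on either side the annotation holds 22 other genes, of which 12 were listed with 15 transcripts, all to the right of the cluster. Of the 15 transcripts, 11 were higher in the mutant and 4 lower, where both mutant libraries lay above both w1118 libraries for 58.8% of all listed transcripts. Annotation-wide 9 were called higher and 0 lower (limma), where 22.0% of all listed transcripts were called higher and 8.69% lower. These 9 belong to 8 epsilon class glutathione S-transferase genes, which encode detoxification enzymes. Their log2 changes lay between 1.47 and 2.88. Under median-ratio scaling 3 of the 9, of GstE1 and GstE8, were called higher annotation-wide, where 54 of all 1761 listed transcripts were. The closest listed gene was Idgf5, which encodes an imaginal disc growth factor of the chitinase-like family and begins 3.04 kb from the cluster. It had 1.76 and 2.92 TPM in the mutant libraries, against 0.611 and 0.416 TPM in the w1118 libraries (limma annotation-wide adjusted p = 0.0889). The adaptor gene imd, at 19.2 kb, had 16.4 and 20.3 TPM in the mutant libraries, against 8.56 and 9.78 TPM in the w1118 libraries (limma annotation-wide adjusted p = 0.442). The 4 lower transcripts were of Ttd14 and Dp1, and 1 of them, of Ttd14 (FBtr0113361), was called annotation-wide under median-ratio scaling (limma adjusted p = 0.0387). That fit called 194 of all 1761 listed transcripts lower.

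With TPM as deposited, the replicate libraries of the mutant gave similar Bomanin levels. The median-ratio factors were 1.11 for mutant replicate 1 and 1.6 for mutant replicate 2. Under that scaling all mutant ratios of replicate 2 to replicate 1 below would be lower. For w1118 the factors were 0.759 for replicate 1 and 0.698 for replicate 2, so the w1118 ratios below would be higher. The level in mutant replicate 2 divided by that in mutant replicate 1 ran over 0.733 to 1.56, with a median of 0.985, and was above 1 for 3 of the 7. Over the 1206 listed transcripts that averaged at least 5 TPM the median of this ratio was 1.31. Antimicrobial peptides, which kill bacteria and fungi directly, gave ratios of 1.86 to 3.3 over 11 listed transcripts. The ranges of the Bomanins and of the antimicrobial peptides did not overlap. In the w1118 libraries the same ratio, replicate 2 over replicate 1, ran over 0.682 to 6.76 for the Bomanins, the highest being that of BomBc1. As transcripts of 1 library share its preparation, these ratios are a description of these libraries, and the difference between the lists was not tested.

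**Figure D4:**
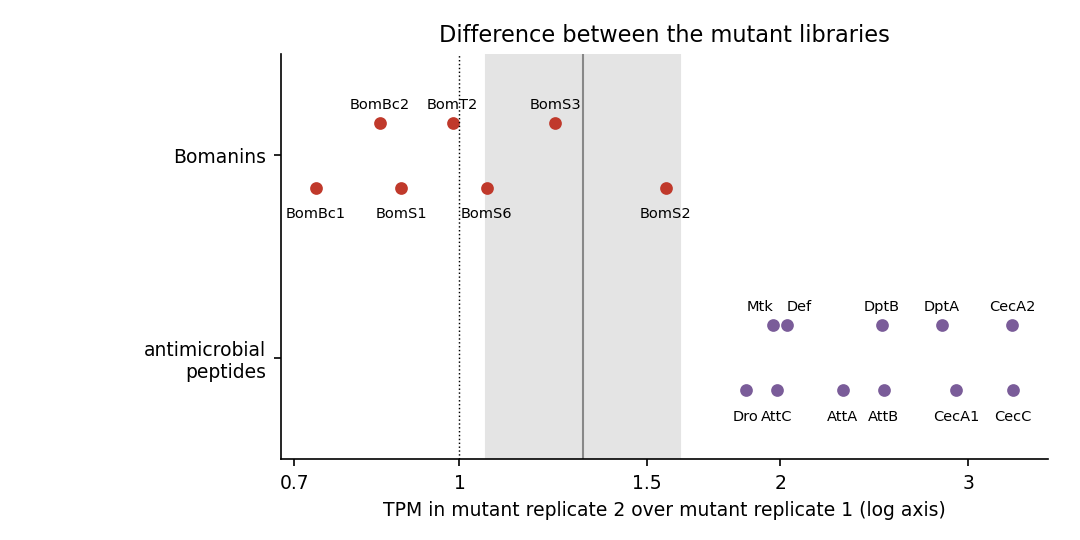
TPM in mutant replicate 2 divided by TPM in mutant replicate 1 (log axis) for the 7 listed Bomanins and the 11 listed antimicrobial peptide transcripts; the grey band and line are the middle 50% and the median of the 1206 listed transcripts that averaged at least 5 TPM. Bomanins run over 0.733 to 1.56 and antimicrobial peptides over 1.86 to 3.3.

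Of 21 antimicrobial peptide genes 11 were listed, and the levels of the others are unknown. Set beside the listed Bomanins, the listed antimicrobial peptides were lower in w1118 as a sum and higher in the mutant. Their 11 listed transcripts summed to 836 and 1989 TPM in the mutant libraries, against 52.7 and 64.2 TPM in the w1118 libraries. By mean level over the 4 libraries the highest were DptA, DptB, Mtk and Def. DptA, which encodes Diptericin A, had 247 and 699 TPM in the mutant libraries, against 1.91 and 5.86 TPM in the w1118 libraries. Def, which encodes the peptide Defensin, had 138 and 279 TPM in the mutant libraries, against 20.9 and 25.9 TPM in the w1118 libraries. In each of these pairs of libraries mutant replicate 2 was the higher, unlike in 4 of the 7 Bomanins.

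The other genes of the Toll pathway were sparsely listed. Of 37 genes in 5 lists of recognition proteins, proteases, signalling proteins, transcription factors and effectors, 7 had a listed transcript. All 7 were higher in the mutant with TPM as deposited, as were 58.8% of all listed transcripts. Of the 7, 6 passed limma over the listed transcripts, where 53.7% of all listed transcripts were called higher, and 5 rose, where 22.0% were called higher annotation-wide. Under median-ratio scaling 3 of the 7 (IM18, Mtk and Dro) were called higher annotation-wide, where 54 of all 1761 listed transcripts were. The log2 change of cactin under that scaling was -0.0044. Mtk and Dro also belong to the antimicrobial peptide list. No listed transcript belonged to the ligand spz, the receptor Tl, the adaptors Myd88 and tub, the kinase pll, the inhibitor cact or the transcription factors dl and Dif.

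Among recognition proteins, 1 of 4 was listed. PGRP-SA, which binds the peptidoglycan of Gram-positive bacteria, had 10.2 and 13 TPM in the mutant libraries, against 4.13 and 2.09 TPM in the w1118 libraries. It rose, with a log2 change of 1.65 ± 0.39 (limma annotation-wide adjusted p = 0.0383, and 0.603 under median-ratio scaling). Of the ligand and its proteases, 1 of 9 genes was listed. SPE, the protease that cuts Spätzle, had 6.4 and 7.14 TPM in the mutant libraries, against 2.06 and 1.9 TPM in the w1118 libraries (limma annotation-wide adjusted p = 0.0785). Of 9 receptor and cytoplasmic genes, cactin alone was listed, at 10.2 and 11.8 TPM in the mutant libraries, against 6.93 and 5.27 TPM in the w1118 libraries (limma annotation-wide adjusted p = 1). PGRP-SA, SPE and cactin did not overlap between the genotypes, like every listed transcript that was higher. Of them PGRP-SA alone was called annotation-wide.

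Of 11 other effectors, 4 were listed and all 4 rose, where 22.0% of all listed transcripts did. Under median-ratio scaling the annotation-wide call of Dso1 was lost (limma adjusted p = 0.352). Dso1 encodes Daisho1, a short peptide with a role against fungi, and had 53.8 and 76.9 TPM in the mutant libraries, against 22.9 and 16.2 TPM in the w1118 libraries. Its log2 change of 1.69 ± 0.3 (limma annotation-wide adjusted p = 0.00291) was within the range of the Bomanins. IM18, an immune-induced peptide, had 83.1 and 168 TPM in the mutant libraries, against 1.74 and 5.73 TPM in the w1118 libraries. Mtk and Dro, which encode the antimicrobial peptides Metchnikowin and Drosocin, are also counted among the antimicrobial peptides above. IMD is the better known gut route to such peptides, so a place in the Toll lists does not assign their rise to Toll. Which pathway acted on them was not tested. Mtk had 164 and 323 TPM in the mutant libraries, against 19.1 and 20.1 TPM in the w1118 libraries. Dro had 51.5 and 95.7 TPM in the mutant libraries, against 5.28 and 4.44 TPM in the w1118 libraries. For all 4 effectors mutant replicate 2 exceeded mutant replicate 1. Bbd (Bombardier), which is known to be needed for short Bomanins to accumulate in the blood, had no listed transcript, nor did Drs, which encodes Drosomycin.

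**Figure D5:**
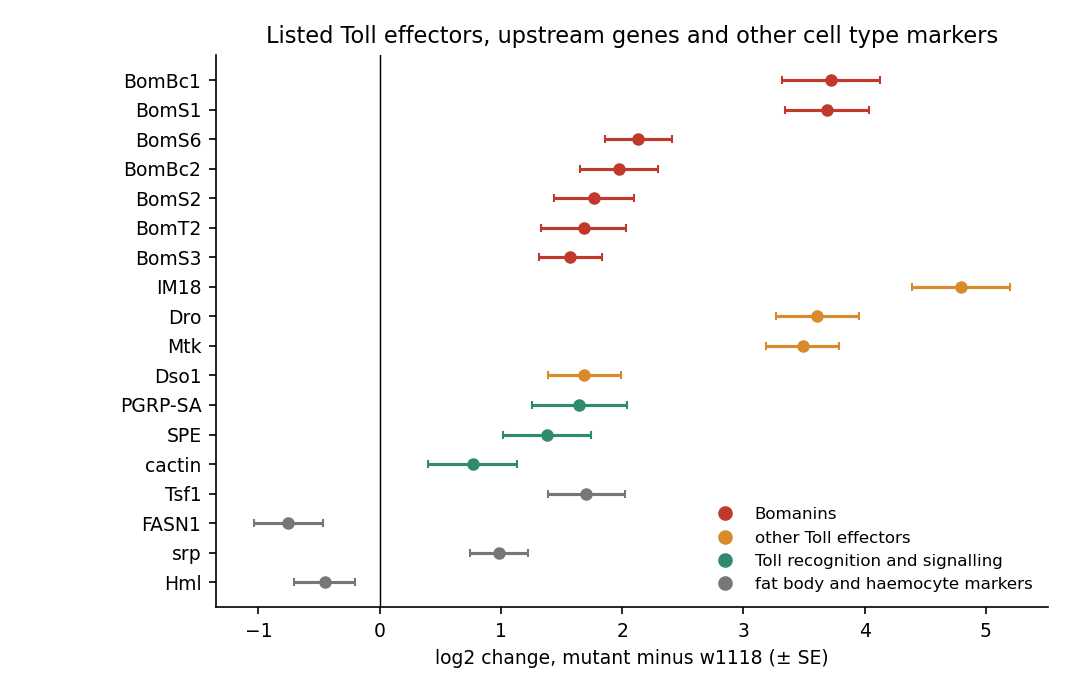
Log2 change (mutant minus w1118) with its SE for the listed Bomanins, other Toll effectors, Toll recognition and signalling genes, and fat body and haemocyte markers. The other effectors include Mtk and Dro, which are also counted as antimicrobial peptides. All Bomanins and effectors lie at 1.57 or above, the upstream genes PGRP-SA, SPE and cactin between 0.77 and 1.65, and the markers on both sides of 0.

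Fat body and haemocytes, the blood cells, also make immune peptides, and remnants of either can stay on a dissected gut. Of 14 fat body markers 2 were listed, with a summed level of 29.8 and 38.2 TPM in the mutant libraries, against 9.42 and 11.5 TPM in the w1118 libraries. Nearly all of this was Tsf1, which encodes a secreted transferrin and rose with a log2 change of 1.71 ± 0.32 (limma annotation-wide adjusted p = 0.00452, and 0.23 under median-ratio scaling). FASN1, a fatty acid synthase, had 0.00308 and 0.000769 TPM in the mutant libraries, against 0.176 and 1.43 TPM in the w1118 libraries. The larval serum protein gene Lsp2 and the yolk protein genes Yp1, Yp2 and Yp3 were not listed. Of 12 haemocyte markers 2 were listed, with a summed level of 1.2 and 1.32 TPM in the mutant libraries, against 0.957 and 0.557 TPM in the w1118 libraries. The listed transcript of the GATA factor srp (FBtr0335424) had 1.03 and 0.925 TPM in the mutant libraries and was listed at or near 0 in both w1118 libraries. It rose, with a log2 change of 0.984 ± 0.24 (limma annotation-wide adjusted p = 0.039, and 0.191 under median-ratio scaling). Hml, which encodes hemolectin, had 0.169 and 0.393 TPM in the mutant libraries, against 0.957 and 0.557 TPM in the w1118 libraries. Hml was not called annotation-wide. The part of either cell type in the Bomanin levels was not tested.

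Markers of the Malpighian tubules, the excretory organs that join the gut, were listed for 3 of 8 genes (Oatp58Db, Oatp58Dc and ZnT35C) and were all higher, as were 58.8% of all listed transcripts. Their sum was 129 and 143 TPM in the mutant libraries, against 50.6 and 57.3 TPM in the w1118 libraries. Of the 3, Oatp58Db and ZnT35C rose (limma annotation-wide adjusted p = 0.00109 and 0.0238), where 22.0% of all listed transcripts did. With median-ratio scaling limma called 0 of the 3 annotation-wide. The part of the tubules in the Bomanin levels was not tested. Of 10 enterocyte markers 6 were listed with 7 transcripts, which summed to 18711 and 15693 TPM in the mutant libraries, against 35685 and 38224 TPM in the w1118 libraries. Enterocytes are the absorptive cells of the gut, so the labelled tissue was represented in all 4 libraries. Of the 7 transcripts, 5 fell and 1 rose, where 8.69% of all listed transcripts fell and 22.0% rose. Under median-ratio scaling limma called 3 of the 7 lower and 0 higher annotation-wide. Over all 1761 listed transcripts that fit called 194 lower and 54 higher. Of gut stem cell and progenitor markers 1 of 2 genes was listed, of enteroendocrine markers 3 of 6 and of visceral muscle markers 2 of 4, and limma called none of their transcripts annotation-wide with TPM as deposited. Under median-ratio scaling it called 3 of 6 enteroendocrine transcripts lower, where 194 of all 1761 listed transcripts were called lower annotation-wide.

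Transcripts with the pattern most like each Bomanin were found by the distance between their log2(TPM + 1) values, centred on each transcript's mean over the 4 libraries, among listed transcripts that averaged at least 5 TPM. The nearest to BomS2 was Dso1, at a distance of 0.118. The nearest to BomS6 was CG16713 (0.14), at 231 and 221 TPM in the mutant libraries, against 39.7 and 59.7 TPM in the w1118 libraries. The nearest to BomS1 was CG9360 (0.223), which stood second for BomBc1 (0.391). The nearest to BomBc2 was Coprox (0.0982), which encodes coproporphyrinogen oxidase of haem synthesis. The nearest to BomS3 was ATPCL (0.119), the ATP citrate lyase, and the nearest to BomT2 was AnxB9 (0.101), an annexin. The nearest to BomBc1 was FBtr0310320 (0.32), a transcript with no match in the annotation. Next in order, besides a pair of transcripts with no match, stood CG13325 for BomS1 and BomBc1, Sodh1 and CG2017 for BomBc2, Rrp4 and puml for BomS2, Prip and Bub3 for BomS3, CG12963 for BomT2, and Oatp58Db and GstO2 for BomS6. Over 4 libraries in 2 groups such distances mostly reflect the size of the change and the order of the replicates.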

How the data were processed

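RNA from 4 pools of 30 intestines was sequenced, per the labels' protocols, which accept only RNA with an integrity number above 8. The single deposited table gives TPM of each library and a p-value per transcript, per the file headers. Per the submitters' processing notes, Cufflinks and DESeq were used, with no role or version given; no source used here gives the aligner, genome build, annotation or strand setting. It is not stated if these deposited p-values are adjusted. Of 1761 listed transcripts 1741 were found in the Ensembl gene annotation for BDGP6.54 (release 115); the authors may have used another.

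The file held TPM, so limma 3.58.1 (R 4.3.3) with a mean-dependent prior variance was run on log2(TPM + 1) over the whole table, without filter or block. This scale understates changes of low transcripts. The Benjamini-Hochberg method gave adjusted p-values. A ratio of means needed 0.5 TPM or more in both groups. The fit was tested on simulated data. Named transcripts were every listed Bomanin, Kdm5, listed Toll genes and cell type markers, the 4 highest antimicrobial peptides, neighbours within 50 kb and the 3 nearest patterns per Bomanin. Members and lists were chosen with earlier results of these data known. Replicate numbers mark no stated pairing. Promoter and protein sequences were not used here.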

Additional observations from a re-analysis of the deposited data

How the results depend on the processing

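All 7 Bomanin log2 changes kept their direction under each of the 12 planned settings (84 of 84 values). Limma also called all 7 higher under each planned setting that kept both libraries of each genotype. The annotation-wide adjustment was among these settings, and the others adjusted over the listed transcripts. The list was selected on this same contrast, so such calls were likely beforehand and say little of robustness. By construction, median-ratio scaling over the listed transcripts moved their median log2 change toward 0, to 0.0962 against 0.863 as deposited. Under it the Bomanin log2 changes were 0.72 (BomS3), 0.896 (BomT2), 0.94 (BomS2), 1.16 (BomBc2), 1.28 (BomS6), 2.92 (BomS1) and 3.15 (BomBc1), all still called over the listed transcripts. Over all listed transcripts it gave 307 higher and 717 lower calls, against 946 higher and 412 lower as deposited. With the annotation-wide adjustment the calls were 387 higher and 153 lower. Annotation-wide adjustment of rescaled values was added after the data were seen. With median-ratio scaling it called 1 Bomanin (BomS1), 3 Toll pathway transcripts, 54 transcripts higher and 194 lower, and the call was lost for the 6 other Bomanin log2 changes above. With scaling to the TPM outside the list it called 7 Bomanins, 4 Toll pathway transcripts, 330 transcripts higher and 185 lower.

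The deposited p-values, adjusted annotation-wide, gave 0 called Bomanins (lowest adjusted p 0.292), where all 7 were under 0.05 as deposited. The annotation-wide calls of limma with 1 library left out were added after the data were seen. Without mutant replicate 1 or 2 they numbered 0 Bomanins, 0 Toll pathway transcripts and 0 transcripts in either direction. Without w1118 replicate 1 they numbered 6 Bomanins, 4 Toll pathway transcripts, 208 transcripts higher and 74 lower, and without w1118 replicate 2 they numbered 5, 3, 235 and 131. The log2 changes whose annotation-wide call was lost without mutant replicate 1 or 2 were 3.51 and 3.94 for BomBc1, 3.6 and 3.78 for BomS1, 1.85 and 2.1 for BomBc2, 2.08 and 1.45 for BomS2, 1.72 and 1.43 for BomS3, 1.67 and 1.7 for BomT2, and 2.18 and 2.09 for BomS6. Those lost without a w1118 library were 1.49 (replicate 1) and 1.88 (replicate 2) for BomT2 and 1.51 (replicate 2) for BomS2. No BomBc1 ratio of means could be had without w1118 replicate 2. Over the listed transcripts, 426 to 1014 were called higher and 154 to 287 lower with 1 library left out. The cause was not tested.

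The replicate numbers share no stated source, and the replicate block called 7 of 7 Bomanins, 664 transcripts higher and 269 lower. Differences between replicates 1 and 2 correlated at -0.19 between the genotypes over 1761 transcripts. The crossed replicate block, added after the data were seen, called 7 Bomanins, 1035 transcripts higher and 631 lower.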
